A study of Mus musculus with 9 samples.

Results

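The comparison is between neutrophils held in a gel of middle stiffness (2.6 kPa) and neutrophils held in a gel of low stiffness (1.5 kPa, the control group of the study). Libraries were taken by the group named in their titles. This gives 3 middle and 3 low libraries, 6 of the 9 libraries of the series, and the other 3 come from a gel of high stiffness (5.7 kPa). All groups are wild-type primary mouse bone marrow neutrophils, kept for 2 days inside gelatin methacryloyl (GelMA), a light-crosslinked gelatin whose elastic modulus can be set. RPMI medium with fetal bovine serum was the same in every group, and the gel was lysed to recover the cells for polyadenylated RNA sequencing. The labels number the libraries 1 to 3 in each group but do not say whether a number marks a mouse, a gel or a preparation. The p-values below therefore measure the spread between these libraries, part of which may be technical. Neutrophil purity, age and sex of the animals are not stated in the labels.

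Neutrophils are short-lived phagocytes that bone marrow releases in large numbers. They sense their surroundings through integrins, G-protein-coupled chemoattractant receptors and pattern recognition receptors, and they answer with stored granule proteins and with new transcripts for chemokines and cytokines. In tumour and injury models an inflammatory state (N1), marked by IL-12, TNF and ICAM-1, is set apart from an anti-inflammatory, repair-associated state (N2), marked by arginase 1, IL-10 and CXCR4. Macrophages show a related divide, and several of these genes are also macrophage genes. The title of the series places the question in the effect of substrate stiffness on this polarization.

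The 6 libraries held between 13.2 M and 19.5 M counted reads, with replicate 1 the shallowest in both groups. Neutrophil transcripts were abundant in all of them. The deposited FPKM of S100a8, a calcium-binding protein that fills the neutrophil cytosol, ran from 2509 to 14621 over the low and middle libraries, and that of the granulocyte growth factor receptor Csf3r from 64.8 to 287. Macrophage transcripts were also plain. FPKM of Gpnmb, a lysosomal membrane glycoprotein of macrophages, ran from 463 to 1504, and FPKM of the macrophage colony-stimulating factor receptor Csf1r from 160.2 to 344. Cd3e, a subunit of the T cell receptor complex, stayed between 0.05 and 0.41 FPKM. Other lineages left more RNA: the B cell gene Cd79a ran from 8.46 to 52.68 FPKM and the haemoglobin gene Hbb-bs from 390.86 to 634.41. In replicate 1 of both groups S100a8 was lower (2509 FPKM in low and 3485 in middle) than in replicates 2 and 3 (10289 to 14621 FPKM in low and 11110.0 to 13492 in middle). Because these are bulk samples, fewer cells of a type and less RNA per cell cannot be told apart.

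With replicate number as a block, 98 genes were higher in middle than in low and 124 were lower, out of 12094 tested (0.81% and 1.03%, together 222 genes or 1.84%, edgeR quasi-likelihood test, Benjamini-Hochberg adjusted p under 0.05). Of these, 24 rose and 21 fell by at least 2-fold, and the median change was 0.65 on the log2 scale among the genes that rose and -0.63 among those that fell. Every one of the 222 genes moved the same way within all 3 replicate numbers, a pattern that a fit with this block favours. Of all 12094 tested genes, 2137 were higher and 2372 lower in middle within all 3 numbers. The middle and low libraries did not overlap at all for 99 of the 222 genes (44 higher and 55 lower). Among all tested genes, 3.56% had all middle libraries above all low libraries and 4.2% had them all below. Without the block, 0 genes passed by the same edgeR test. In that fit 318 genes had an unadjusted p under 0.05, and the smallest adjusted p was 0.366. A block that only sets replicate 1 apart from replicates 2 and 3 gave 143 higher and 211 lower genes, which hold 97 of the 98 and all 124. The calls therefore depend on setting replicate 1 apart, and not on pairing numbers 2 and 3 across groups. The biological coefficient of variation was 0.337 without a block and 0.115 with the block of 3 numbers.

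**Figure D1:**
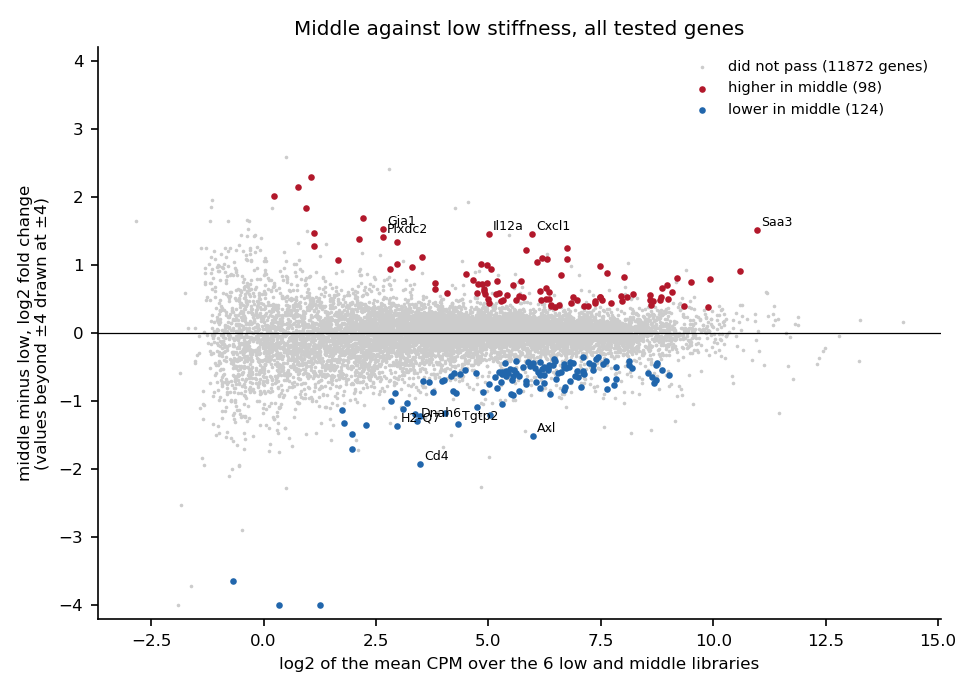
Log2 fold change of middle against low (vertical axis) against the log2 mean level in CPM of the 6 low and middle libraries (horizontal axis), 1 point per tested gene. Red points are the 98 genes higher in middle and blue points the 124 lower. The 5 largest rises and 5 largest falls among called genes of at least 5 CPM are named, from Gja1 at 1.52 to Cd4 at -1.93.

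The number of calls depended on each library. Leaving out low replicate 1 raised it from 222 to 661 genes. Leaving out low replicate 2 lowered it to 80 and low replicate 3 to 27, while it was 35, 55 and 50 without middle replicates 1, 2 and 3. All 222 genes kept their direction in each of these 6 fits, which share most libraries with the full fit and so are not independent of it. Of the 222 genes 18 passed in every one. These 18 included the chemokines Cxcl1 and Cxcl3, the acute-phase gene Saa3, Il10, Cd302, Siglece, Phlda1, Aldoc and Acta2 among the genes that rose. Cxcr4, Hpse, Entpd1 and Dnmt3a were among those that fell. So were Cyp2e1 (-8.31 ± 0.88) and Car3 (-4.6 ± 0.51), 2 genes typical of fat cells with few counts, which are described under other observations.

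Neutrophil-attracting chemokines were among the clearest rises. Cxcl1, a ligand of the neutrophil receptor CXCR2, had 66.9, 21.2 and 17.4 CPM in low replicates 1, 2 and 3 and 150.3, 55.8 and 62.7 CPM in middle replicates 1, 2 and 3. CPM here is read counts scaled to a common library total after TMM normalization. Replicate 1 was highest in both groups, so the groups overlapped, but within each number the middle library was more than 2-fold higher, and the difference was 1.46 ± 0.12 on the log2 scale (SE; adjusted p = 0.000743). Cxcl3, a second CXCR2 ligand of the same gene cluster, had 91.1, 58.6 and 48.0 CPM in low and 238, 89.7 and 117 CPM in middle, a rise of 1.09 ± 0.14 (adjusted p = 0.0056). The remaining 19 of the 21 chemokine ligands tested did not pass, and the median over the list was -0.13 against 0.01 over all tested genes. Among chemoattractant receptors 2 rose and 2 fell of 19. Fpr1 (0.79 ± 0.11) and Fpr2 (0.66 ± 0.13), which detect bacterial formylated peptides, rose. The marrow-retention receptor Cxcr4 (-0.77 ± 0.10) and the complement C3a receptor C3ar1 (-0.73 ± 0.11) fell.

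A few acute-phase and granule transcripts were also higher. Saa3, an acute-phase apolipoprotein made by activated myeloid cells, had 542, 1653 and 1079 CPM in low replicates 1 to 3 and 1910.1, 2969 and 3957 CPM in middle, a rise of 1.52 ± 0.18 (adjusted p = 0.0056). The lowest middle library lay above the highest low one. Later-stage granule contents (secondary and tertiary, 20 tested) included 3 that rose and 0 that fell. They were Lcn2 (0.92 ± 0.16), which sequesters bacterial siderophores, the chitinase-like Chil1 (0.82 ± 0.13) and haptoglobin, Hp (0.70 ± 0.14). Over those 20 genes 11 were above and 9 below 0, with a median of 0.07 against 0.01 over all tested genes. Of 10 primary granule genes 0 passed, and 8 were below 0 (median -0.32). Lcn2 had 419.6, 1529 and 1489 CPM in low and 1175, 2240.4 and 2456 CPM in middle, with a larger step in replicate 1 than in the others. Of 30 mature neutrophil markers 5 rose and 1 fell, with 20 above and 10 below 0. Those that rose were Siglece (0.98 ± 0.11), an inhibitory sialic acid receptor, Wfdc21 (1.25 ± 0.22), Fpr1, Fpr2 and Lrg1 (0.59 ± 0.10). The lowest difference in the list was that of Ly6g, the granulocyte surface antigen, which did not pass (-0.82 ± 0.60, adjusted p = 0.632). Ly6g had 5.05, 51.2 and 43.8 CPM in low and 7.25, 19.8 and 24.1 CPM in middle, higher in middle in replicate 1 and lower in replicates 2 and 3. The summed level of all 30 markers was 10300, 24500 and 21000 CPM in low and 12800, 22300 and 25600 in middle, higher in middle in replicates 1 and 3 and lower in replicate 2. The part of this in the calls was not tested.

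Polarization markers showed few calls. Among 14 tested N1 markers 1 rose and 0 fell, and the list median was 0.28. Within all 3 numbers 9 of them were higher in middle, as were 2137 of all 12094 tested genes. The gene that rose was Il12a, the p35 subunit shared by IL-12 and IL-35. It had 10.3, 20.6 and 19.5 CPM in low and 23.2, 56.0 and 63.4 CPM in middle, without overlap (1.46 ± 0.22, adjusted p = 0.0204). Its IL-12 partner Il12b had a difference of 0.85 ± 0.23 (adjusted p = 0.104). Ebi3, the partner in IL-35, rose by 0.39 ± 0.09, and with Il10 these were the 3 called of 29 cytokine and growth factor ligands. The nearest other N1 markers to the threshold were Fas (0.33 ± 0.09, adjusted p = 0.104), Ccl3 (0.40 ± 0.12, 0.127) and Tnf (0.28 ± 0.08, 0.131). Il1b (0.61 ± 0.21), Ccl4 (0.29 ± 0.09), Cd80 (0.39 ± 0.32), Icam1 (0.16 ± 0.12), Nos2 (0.07 ± 0.09) and Il6 (0.07 ± 0.66) had differences above 0. Il18 (-0.23 ± 0.18), Cxcl10 (-0.27 ± 0.30) and Cd86 (-0.45 ± 0.26) had differences below 0.

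Of 13 tested N2 markers 1 rose and 1 fell, with a list median of -0.13. Il10, the main anti-inflammatory cytokine of myeloid cells, had 30.4, 19.0 and 19.8 CPM in low and 47.4, 39.9 and 42.8 CPM in middle, a rise of 0.94 ± 0.10 without overlap (adjusted p = 0.00271). Cxcr4 had 234, 309 and 289.7 CPM in low and 116, 183 and 199.6 CPM in middle, also without overlap (adjusted p = 0.00368). Arg1, arginase 1, had the largest difference in the list, 2.41 ± 0.68, but its adjusted p was 0.205. The call depended on the fit: with the high libraries left out it was 2.35 ± 0.38 (adjusted p = 0.0348), and DESeq2 gave 2.29 ± 0.68 (adjusted p = 0.0244). Over the other alternatives its adjusted p was 0.15 to 1. It was near 2 CPM in every low library (2.11, 1.95 and 1.69) and spread widely in middle (22.8, 4.98 and 7.72). The other N2 markers lay between -0.51 ± 0.20 for the chemoattractant Prok2 and 0.31 ± 0.11 for the IL-4 receptor chain Il4ra. Mrc1 (0.06 ± 0.37), Mmp9 (0.11 ± 0.11), Tgfb1 (0.07 ± 0.11), Cd274 (-0.13 ± 0.10), Ccl2 (-0.13 ± 0.15), Vegfa (-0.19 ± 0.10), Chil3 (-0.21 ± 0.34) and Ccl5 (-0.35 ± 0.44) lay in that span and did not pass.

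**Figure D2:**
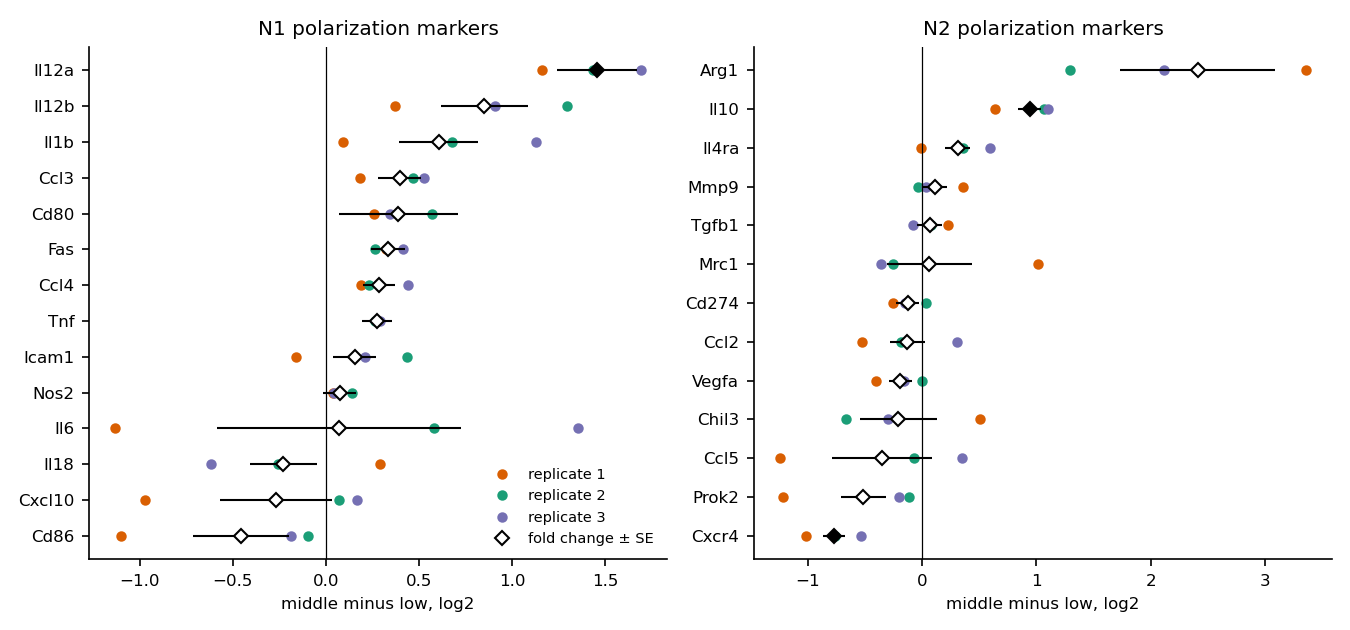
Middle minus low on the log2 scale for 14 N1 (left) and 13 N2 (right) markers. Coloured points are the differences within replicates 1, 2 and 3, and diamonds with bars are the fitted fold change ± SE, filled where the adjusted p was under 0.05 (Il12a, Il10 and Cxcr4). Replicate 1 lies far from replicates 2 and 3 for Il6, Mrc1, Ccl5 and Prok2.

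Regulators of inflammatory signalling rose in small numbers. Of 28 NF-kB targets and regulators 26 had a difference above 0, against 6219 of all 12094 tested genes. The list medians within replicates 1, 2 and 3 were 0.01, 0.38 and 0.36. Only 2 members passed, both upward: mitochondrial superoxide dismutase Sod2 (0.75 ± 0.12) and the NF-kB subunit Nfkb1 (0.47 ± 0.09). Sod2 had 668, 482 and 487 CPM in low and 1066, 822 and 846 CPM in middle, and its groups did not overlap. Among 24 JAK-STAT genes the IL-6 feedback inhibitor Socs3 (0.88 ± 0.15) and the survival kinase Pim2 (0.99 ± 0.17) rose and 0 fell. In that list 10 were above and 14 below 0 (median -0.03). Of 29 immediate early and AP-1 genes, with 16 above and 13 below 0 (median 0.07), Fosl1 (1.39 ± 0.30) and Ier3 (0.47 ± 0.10) rose. Fosl1 was of low level (1.96 to 8.61 CPM) and nearly level in replicate 1, with differences of 0.075, 1.695 and 1.818 within replicates 1 to 3. Those of Ier3 were 0.17, 0.70 and 0.53. Among 25 pattern recognition receptors 0 rose, and Tlr7 (-0.64 ± 0.10), an endosomal sensor of RNA, and Cd180 (-0.82 ± 0.15), a TLR4-like surface protein, fell. Of 17 checkpoint and costimulatory genes 0 rose, while Entpd1 (-0.86 ± 0.10), which degrades extracellular ATP, and Pdcd1lg2 (-0.54 ± 0.11), which encodes the PD-1 ligand PD-L2, fell.

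Some adhesion receptors fell while a few cytoskeletal genes rose. Of 29 integrins and adhesion receptors 5 fell and 0 rose, while 1.03% of all tested genes fell and 0.81% rose. Across the list 14 were above and 15 below 0, with a median of -0.06. Itgb3, the beta-3 chain of vitronectin-binding integrins, had 187, 149.7 and 171 CPM in low and 89.3, 107 and 98.8 CPM in middle, a fall of -0.79 ± 0.11 without overlap (adjusted p = 0.00758). The laminin receptor chain Itga6 (-0.90 ± 0.14) and Jaml (-0.90 ± 0.14), which binds a receptor at epithelial junctions, also fell, as did the collagen receptor chain Itga2 (-1.14 ± 0.24), which lies outside the naming rule and was named after its values were seen. Of 41 focal adhesion and actin genes, with 23 above and 18 below 0 and a median of 0.05, 4 rose and 0 fell. They were smooth muscle actin Acta2 (0.76 ± 0.09), the focal adhesion protein Tes (0.70 ± 0.14), the actin-filament elongation factor Vasp (0.50 ± 0.11) and the haematopoietic GTPase Rac2 (0.39 ± 0.09). Among 13 tested stromal and endothelial markers Acta2 was the 1 that rose, and Kdr the 1 that fell. That list, with both genes, summed to 646, 290 and 314 CPM in low and 463, 303 and 288 in middle. The sum was lower in middle in replicates 1 and 3 and higher in replicate 2. The part of stromal or endothelial RNA in either change was not tested. Gap junction protein connexin 43, Gja1, had the largest rise among called genes of at least 5 CPM, with predicted-gene and clone symbols left out. It went from 2.34, 3.36 and 4.28 CPM in low to 8.88, 8.63 and 10.5 CPM in middle (1.52 ± 0.23).

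Of 25 mechanosensing and YAP-TAZ genes 2 rose and 0 fell, both of low level: the channel-like Tmc3 (1.69 ± 0.26) and Wwtr1, which encodes TAZ (1.07 ± 0.24). Of 35 matrix and matrix protease genes 2 fell and 0 rose. Heparanase, Hpse, which cleaves heparan sulfate, had 145, 132 and 120.2 CPM in low and 74.9, 76.1 and 76.5 CPM in middle, with the 3 middle libraries close together (-0.80 ± 0.09, adjusted p = 0.00271). The other was urokinase, Plau (-0.59 ± 0.11). Megakaryocyte and platelet markers other than Itgb3 and Tubb1, which the list holds, summed to 555.0, 346.0 and 406.7 CPM in low and 375.8, 287.3 and 288.6 in middle, lower within every number. Tubb1, a platelet tubulin, fell by the same fit (-0.88 ± 0.12). The part of platelet RNA in the fall of Itgb3 was not tested.

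**Figure D3:**
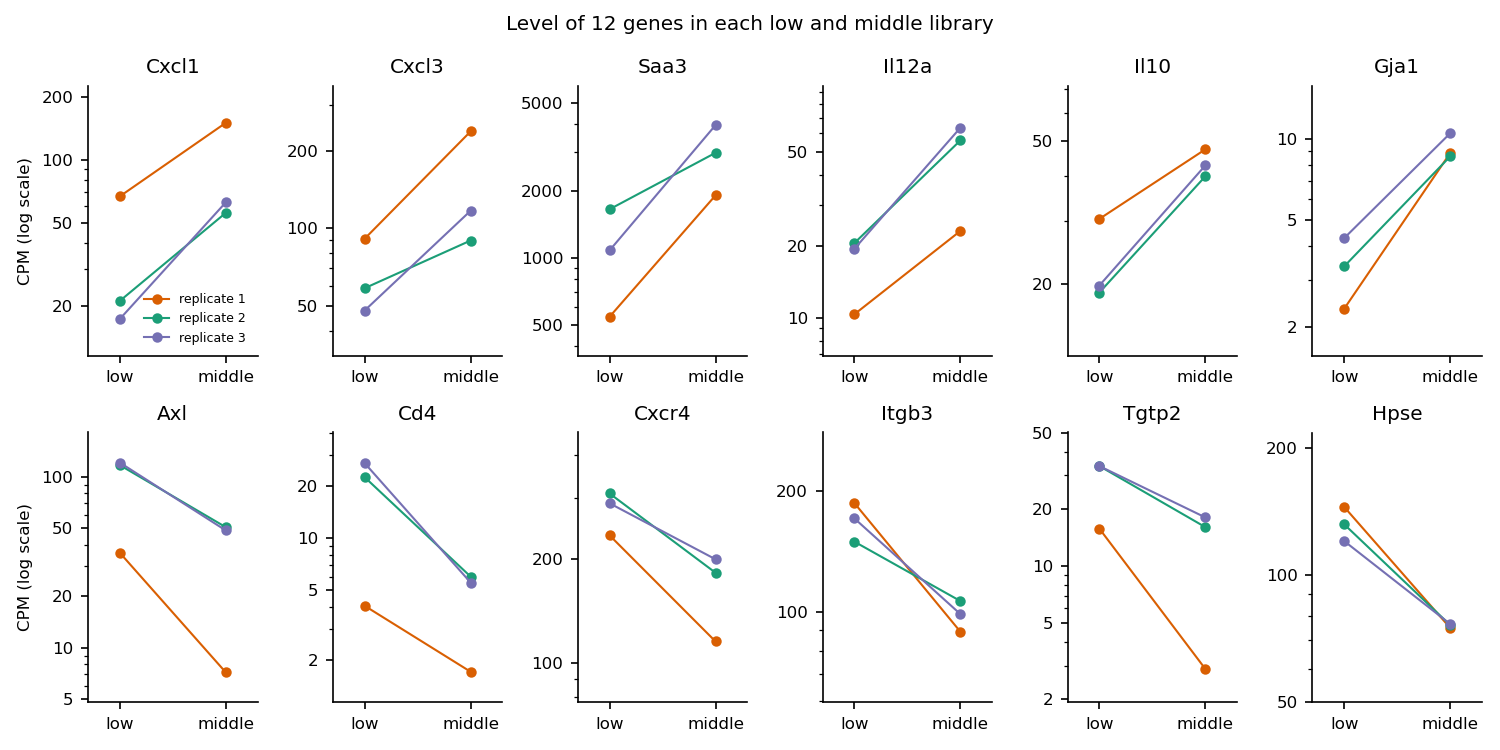
Level of 12 genes in CPM (log axis) in low and middle libraries, with lines joining libraries of the same replicate number. Cxcl1, Cxcl3, Saa3, Il12a, Il10 and Gja1 rise along all 3 lines and Axl, Cd4, Cxcr4, Itgb3, Tgtp2 and Hpse fall along all 3. For Axl, Cd4 and Tgtp2 replicate 1 starts and ends below replicates 2 and 3.

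Interferon-stimulated genes were lower in middle as a list, but few passed singly. All 44 tested members had a difference below 0, with a median of -0.70, and 2 passed: Bst2 and Tgtp2. Bst2, tetherin, which holds budding virus at the cell surface, had 162, 135 and 121 CPM in low and 83.9, 80.4 and 89.4 CPM in middle, without overlap (-0.71 ± 0.10, adjusted p = 0.00676). Tgtp2, an interferon-inducible GTPase, had 15.8, 33.6 and 33.6 CPM in low and 2.89, 16.0 and 18.0 CPM in middle (-1.33 ± 0.23, adjusted p = 0.022). Tgtp2 has a near-identical neighbour, Tgtp1, so the split of reads between them is uncertain. The medians within replicates 1, 2 and 3 were -1.44, -0.32 and -0.28, so the median was farthest below 0 in replicate 1. MHC class I and peptide loading genes followed the same order, with 18 of 19 below 0 and replicate medians of -0.87, -0.45 and -0.24. Of these H2-T23 (-0.67 ± 0.12) and H2-Q7 (-1.36 ± 0.28) fell, and H2-Q7 shares most of its sequence with other H2-Q genes, so its count is uncertain too.

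Some receptors for the clearance of dying cells fell. Of 22 tested genes of that list 3 fell and 0 rose, with a median of -0.39. Axl, a receptor tyrosine kinase that recognizes phosphatidylserine through GAS6, had 36.0, 117 and 121 CPM in low and 7.18, 50.8 and 48.6 CPM in middle (-1.51 ± 0.19, adjusted p = 0.0118). Low replicate 1 lay below middle replicates 2 and 3, so the groups overlapped. Its relative Mertk had 44.1, 80.2 and 86.0 CPM in low and 23.007, 56.3 and 53.3 CPM in middle (-0.70 ± 0.12, adjusted p = 0.0181), and Itgb3 was the other. Of 20 macrophage markers Mertk alone passed, with 14 below 0 and a list median of -0.54. The summed level of the list without Mertk was 15120, 22050 and 20750 CPM in low and 16520, 18510 and 19120 in middle, higher in middle in replicate 1 and lower in replicates 2 and 3. The part of macrophage RNA in these falls was not tested. Lipid efflux and foam-cell genes had a median of -0.61, with 1 of 20 called (Mertk again).

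Genes of fuel handling gave isolated calls. Of 23 glycolysis genes 2 rose and 0 fell: the aldolase Aldoc, from 6.03, 4.17 and 3.14 CPM in low to 15.4, 8.94 and 9.36 CPM in middle (1.33 ± 0.16), and the glucose transporter Slc2a1 (0.49 ± 0.09). Slc2a1 and Ndrg1 (0.40 ± 0.09) were the 2 called of 26 hypoxia targets, 22 of which were above 0. Among 18 genes of fatty acid synthesis Dgat2 (0.48 ± 0.09), which completes triglycerides, rose and the desaturase Scd1 (-0.65 ± 0.12) fell. Of 34 cell cycle and DNA replication genes 29 were below 0, and Top2a, the topoisomerase of dividing cells, fell (-0.43 ± 0.08). Of 36 lysosome genes 30 were below 0, and the cathepsin Ctsk fell (-0.56 ± 0.11). Ctsk and Itgb3 were also the 2 that fell of 7 tested osteoclast markers, 5 of which were below 0. The list, with both genes, summed to 748, 2040 and 2130 CPM in low and 709, 1960 and 2090 in middle. The part of osteoclast RNA in these falls was not tested. Of all 12094 tested genes 6219 were above and 5875 below 0.

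The deepest fall among called genes of at least 5 CPM, with predicted-gene and clone symbols left out, was that of Cd4. Cd4 is best known as the T helper co-receptor and is also made by some dendritic cells and macrophages. It had 4.07, 22.3 and 26.9 CPM in low and 1.70, 5.99 and 5.54 CPM in middle (-1.93 ± 0.35, adjusted p = 0.0363). Cd4 is itself in the lists of lymphocyte and dendritic cell markers. Without it, lymphocyte markers summed to 69.3, 249.8 and 248.6 CPM in low and 38.5, 217.3 and 254.5 in middle, lower in middle in replicates 1 and 2 and not in replicate 3. Dendritic cell markers without Cd4 summed to 379.8, 419.5 and 391.3 CPM in low and 223.7, 313.8 and 343.4 in middle, lower within every number. The part of either in the fall of Cd4 was not tested. Kdr, the VEGF receptor of endothelium, fell from 18.8, 13.1 and 15.5 CPM to 5.47, 7.26 and 7.11 CPM without overlap (-1.22 ± 0.21). The other falls among the 10 largest were Dnah6 (-1.30 ± 0.18), Rab15 (-1.20 ± 0.20), Gpr162 (-1.18 ± 0.20), Stra6l (-1.17 ± 0.17) and Rnf144b (-1.11 ± 0.20). Of 29 cytokine receptors the IL-7 receptor Il7r (-0.57 ± 0.12) fell and 0 rose. Of 14 NADPH oxidase and extracellular trap genes Rac2 and the myeloid factor Cebpb (0.39 ± 0.09) rose and 0 fell. Treml4 (0.66 ± 0.09) was the 1 called of 11 monocyte markers. The rises among the 10 largest not yet given were Plxdc2 (1.41 ± 0.21), Phlda1 (1.22 ± 0.13), Ptgfrn (1.12 ± 0.14) and the myeloid adhesion receptor Adgre4 (1.10 ± 0.15).

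In 14 lists 0 genes passed by edgeR. These were NRF2 targets (20 tested), the unfolded protein response (25), cholesterol synthesis (23), nuclear-encoded respiratory chain (27), cytosolic ribosomal proteins (34), apoptosis and survival (23), inflammasome genes (18), MHC class II (11), primary granule genes (10), p53 targets (18), heat shock genes (14), arginine and nitric oxide genes (14), erythroid markers (9) and eosinophil, basophil and mast cell markers (15). Of their 255 different tested members 46 (18%) had an unadjusted p under 0.05, against 14.6% of all tested genes, and DESeq2 with the same block called 6 (2.35%), against 3.82% of all. Members of the apoptosis list lay between -0.59 and 0.40, and ribosomal protein genes between -0.34 and 0.23. Eosinophil, basophil and mast cell markers summed to 34.6 CPM in middle replicate 1 against 105 to 142 in the other 5 libraries.

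**Figure D4:**
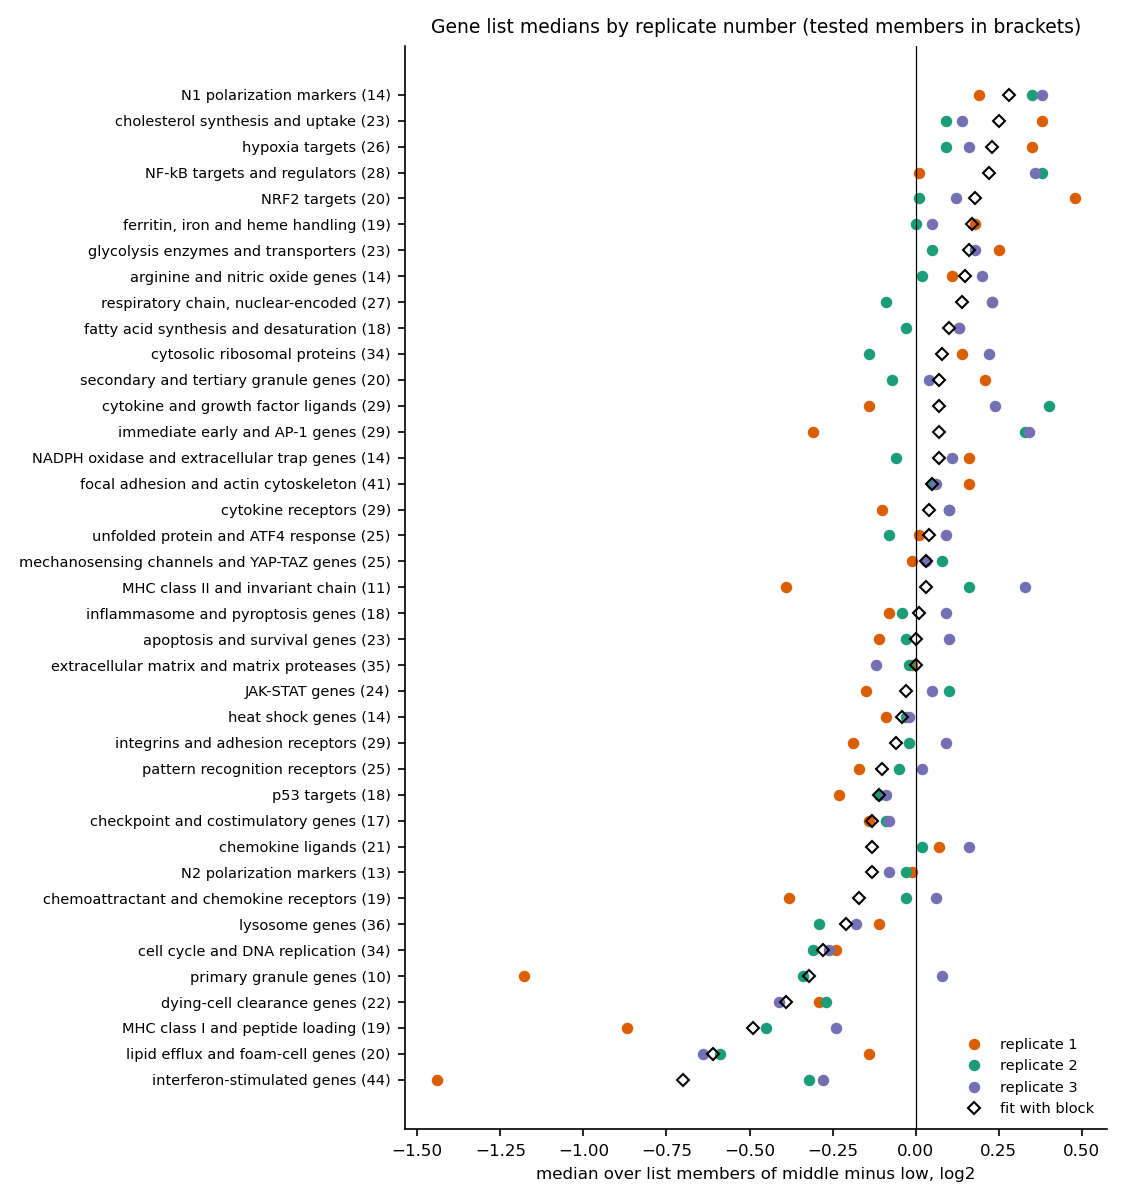
Median middle minus low difference on the log2 scale for each gene list other than cell type markers, within replicate 1 (orange), 2 (green) and 3 (purple) and from the fit with the block (open diamonds). Interferon-stimulated genes have the lowest medians in replicate 1 (-1.44), and immediate early genes are at -0.31 in replicate 1 against 0.33 and 0.34 in replicates 2 and 3.

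Replicate 1 was then compared with replicates 2 and 3. Across the 12094 tested genes, which are not independent of each other, the middle minus low difference of replicate 1 had a Pearson r of 0.168 with that of replicate 2 and of 0.245 with that of replicate 3. Between replicates 2 and 3 it was 0.397. Replicate 1 had the same sign as the mean of the other two in 59% of genes. Signs matched in 53.1% of genes between replicates 1 and 2, 62% between 1 and 3 and 59.5% between 2 and 3. The Spearman rho was 0.125, 0.288 and 0.319 in the same order. Over all genes, then, sign did not set replicate 1 apart. Its differences spread more widely (SD over genes 0.544, against 0.39 and 0.419). In a fit of replicates 2 and 3 alone, 388 genes were higher and 437 lower in middle (3.18% and 3.58% of 12214 tested). Of the 822 of these that the fit of all libraries also tested, 638 (77.6%) had the same sign in replicate 1. The share was 70.1% of 388 higher genes and 84.3% of 434 lower genes. For the higher genes the median difference was 0.17 in replicate 1, 0.52 in replicate 2 and 0.54 in replicate 3, and for the lower genes it was -0.43, -0.55 and -0.54. The 2 sets of calls are not independent, since they share libraries: 220 of the 222 genes of the block fit were also called in replicates 2 and 3 alone, 99.1% of the first and 26.8% of the second.

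Many lists held more calls in replicates 2 and 3 alone, as did the tested genes as a whole. Of all 12214 genes in that fit 3.18% rose and 3.58% fell, against 0.81% and 1.03% with all libraries. N1 markers had 10 that rose and 0 that fell of 14, NF-kB genes 16 and 1 of 28, and immediate early genes 13 and 1 of 29. Cytokine and growth factor ligands had 13 that rose and 1 that fell of 30. Interferon-stimulated genes had 0 that rose and 18 that fell of 44, dying-cell clearance genes 1 and 11 of 22, lipid efflux genes 2 and 12 of 20, lysosome genes 1 and 15 of 36 and macrophage markers 2 and 11 of 20. This fit has 2 libraries a group.

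The difference between replicate 1 and the others was also tested itself, as an interaction term. It passed for 315 genes (2.6% of those tested), with the difference in replicate 1 above that in replicates 2 and 3 for 59 (0.488%) and below it for 256 (2.12%). Signs were opposed in 168 of the 315, replicate 1 had the larger change of the same sign in 133 and the smaller in 14. Of the 222 called genes 7 were among the 315. Replicate 1 gives 1 library a group, so this test takes its spread from the other libraries. In simulated counts it missed most 2-fold differences confined to replicate 1. A gene that did not pass it was therefore not shown to change alike in replicate 1 and the others. Of the 44 interferon-stimulated genes 34 were among the 256 genes lower in replicate 1, as were 9 of 19 MHC class I genes, 11 of 29 immediate early genes and 8 of 29 cytokine ligands.

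The 5 genes with the smallest interaction p among those whose difference was higher in replicate 1 were lipid, scavenger and transport genes with an endothelin receptor. The scavenger receptor Cd36 had 104, 33.2 and 35.8 CPM in low replicates 1 to 3 and 173, 14.6 and 10.8 CPM in middle, so that it was higher in middle in replicate 1 and lower in replicates 2 and 3. Lipoprotein lipase, Lpl, did the same, from 320.2, 181 and 182 CPM to 369, 51.2 and 46.0 CPM. Marco, a scavenger receptor for bacteria, was at 38.0, 393 and 377 CPM in low and 143, 391 and 382 CPM in middle, so that it differed in replicate 1 and hardly in the others. Ednrb (49.8, 84.0 and 71.5 CPM in low, 123, 59.0 and 60.5 in middle) and the heme transporter Slc48a1 (119, 159 and 157 and 229, 145 and 147) completed the 5.

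The 5 with the smallest p among those whose difference was lower in replicate 1 came from signalling and the nucleus. The monocyte chemokine receptor Ccr2 had 65.1, 136 and 131 CPM in low and 16.3, 192 and 202 CPM in middle, lower in middle in replicate 1 and higher in middle in the others. The cytokine Osm (217, 177 and 175 CPM in low, 131, 289 and 278 in middle), the nuclear lamina gene Lmnb1 (50.1, 78.6 and 73.6 and 22.8, 118 and 116) and Csrnp1 (219.8, 109 and 104 and 121, 156 and 180.4) showed the same pattern. The orphan nuclear receptor Nr4a1 was at 129.7, 169 and 185 CPM in low and 127, 520.4 and 531 CPM in middle, nearly level in replicate 1 and higher in middle in the others. Cell type sums moved unequally as well. Monocyte markers other than Ccr2 and Nr4a1, which the list holds, summed to 1012, 2470.0 and 2358 CPM in low and 878.9, 2409 and 2595 in middle, lower in middle in replicates 1 and 2 and higher in replicate 3. Their part in these differences was not tested.

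**Figure D5:**
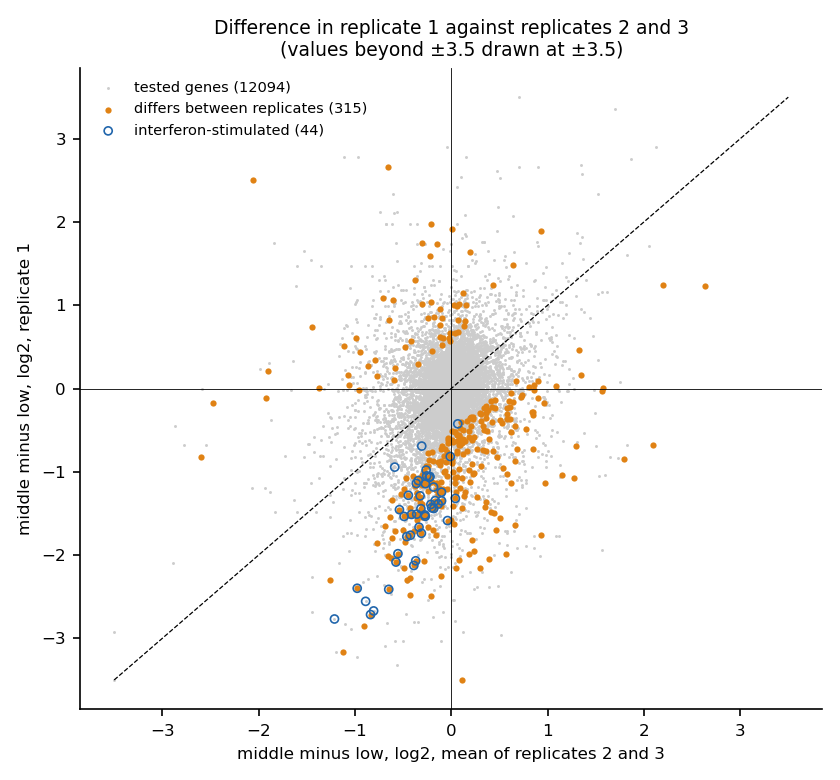
Middle minus low on the log2 scale in replicate 1 (vertical axis) against the mean of replicates 2 and 3 (horizontal axis), 1 point per tested gene, with a dashed line of equality. Orange points are the 315 genes whose difference was not the same by the interaction test. Blue rings are the 44 interferon-stimulated genes, which lie at or below the horizontal zero line.

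High stiffness was fitted against the same low libraries, so its values are set beside those of middle without a test of likeness. The high minus low difference was 2.68 ± 0.22 for Gja1, 2.21 ± 0.12 for Cxcl1, 1.82 ± 0.18 for Saa3, 2.28 ± 0.22 for Il12a and 1.60 ± 0.10 for Il10. It was -0.99 ± 0.10 for Cxcr4, -2.11 ± 0.20 for Axl, -1.29 ± 0.12 for Itgb3 and -0.84 ± 0.10 for Bst2. Arg1, which did not pass in middle with all libraries fitted by edgeR, had 3.24 ± 0.66 in high (adjusted p = 0.0323). Scd1 and Lrg1 passed in middle and not in high, where their differences were 0.09 ± 0.12 (adjusted p = 0.635) and 0.18 ± 0.10 (adjusted p = 0.253). Whether middle and high differed for these genes was not tested here.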

How the data were processed

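Each deposited file holds 1 library, with a raw count per gene for 22173 genes, the authors' FPKM and a deposited column of another unit, the size of each gene's exons in bases. Reads were processed on GRCm39 with HISAT2 2.0.1, cutadapt 1.9.1, DESeq2 and HTSeq 0.6.1, per the submitters' processing notes. Settings and gene annotation version: not given in the sources used here. The deposited FPKM equalled the value recomputed from the counts and sizes, within 0.005, and was used only to compare levels between genes. Genes are named as in the files, and no coordinates were taken from them.

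Counts were fitted with edgeR 4.0.16 in R 4.3.3. Genes kept by filterByExpr (12094, with at least 99.9% of each library's counts) were scaled by TMM and fitted with the robust quasi-likelihood method over all 9 libraries, so that the high group shared in the estimate of spread. The model had stiffness and replicate number as terms (4 residual degrees of freedom) and a two-sided contrast of middle against low. The interaction contrast set the difference in replicate 1 against the mean of those in replicates 2 and 3 (3 residual degrees of freedom). Each SE was derived from the fold change and its F statistic. The procedure was tested on simulated data. No sequences are shown. The result for 1 gene is not reported here. Alternatives were no block, a block of 2 levels, fewer libraries, other scaling, filters and tools (DESeq2 1.42.0 and limma-voom, limma 3.58.1), and each library left out in turn.

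After removal of group means, low and middle libraries of the same number had correlations of 0.815, 0.604 and 0.673 over genes, which met the condition for using the number as a block. Libraries numbered 2 and 3 were as close to each other across groups (0.654 and 0.696), and replicate 1 stood apart from both (-0.761 to -0.699). So the correlations separate replicate 1 from the rest and do not show that numbers 2 or 3 mark a shared source. Within a group, replicates differed beyond counting noise (chi-square per degree of freedom 5.03 and 7.18 between replicates 2 and 3, and 138 to 169 with replicate 1). The comparison, gene lists, alternatives and naming rule were chosen with earlier results of these data known. Named genes are, first, the 10 called genes in each direction with the largest change (5 CPM or more on average, 1 sign in all pairs). Up to 4 called members of each list (or its 2 most abundant) and all tested polarization markers were also named. The last are the 5 genes of smallest interaction p in each direction. Predicted-gene and clone symbols were left out of the first and last sets.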

Additional observations from a re-analysis of the deposited data

Results flagged for a closer look

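The difference between middle and low was tested for being unequal between replicate 1 and replicates 2 and 3 (edgeR interaction term, adjusted p under 0.05), and 315 genes passed. The values that follow are, on the log2 scale, middle minus low in replicate 1 less middle minus low in the mean of replicates 2 and 3. Among genes that also passed the comparison of middle with low they were 0.97 for Wfdc21, 0.85 for Lcn2, -0.61 for H2-T23, -1.06 for Axl, -1.08 for Rab15 and -1.46 for Tgtp2, so the change was deeper in replicate 1 for all 6. Among polarization markers they were 1.33 for Mrc1, 0.99 for Chil3, -0.82 for Il1b, -1.06 for Prok2, -1.38 for Ccl5 and -2.13 for Il6. Il6 had 19.8, 5.04 and 4.22 CPM in low replicates 1 to 3 and 8.95, 7.62 and 11.002 CPM in middle. Other named list members were Ctsc at -0.72, Mdm2 at -0.67 and Btg2 at -0.74.

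The genes with the smallest interaction p were Cd36 at 2.16, Lpl at 2.10, Marco at 1.91, Ednrb at 1.68 and Slc48a1 at 1.07 on the upper side. On the lower side they were Ccr2 at -2.56, Lmnb1 at -1.75, Nr4a1 at -1.59, Csrnp1 at -1.53 and Osm at -1.41. Each of these rests on 1 low and 1 middle library of replicate 1. Groups of 3 are too small for the test of a single outlying library used for larger groups.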

How the results depend on the processing

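Setting replicate 1 apart decided the result: with no replicate block 0 genes were higher and 0 lower, against 98 and 124 with it. A block of 2 levels (replicate 1 against the rest), which does not pair numbers 2 and 3, gave 143 higher and 211 lower genes, replicates 2 and 3 alone 388 higher and 437 lower, no filter on low counts 202 lower, and DESeq2 164 higher and 298 lower. Leaving out 1 library at a time gave 13 to 300 higher and 14 to 361 lower genes. The 315 genes that differed between replicate 1 and the others became 570 with low and middle libraries alone, 724 with no filter, and 115 to 198 with 1 library of replicate 2 or 3 left out. The interaction cannot be estimated without a replicate 1 library of either group. Ednrb reversed to -0.38 in replicates 2 and 3 alone and to -0.40 without low replicate 1, Lmnb1 to 0.62 and 0.70, and Ccr2 to 0.56 and 0.55, all 3 uncalled with all libraries. Over all single omissions these 3 ran from -0.40 to 0.47, -0.41 to 0.70 and -0.82 to 0.55. The 67 named genes that passed kept their direction under all 16 alternatives and stayed past the threshold in 763 of 1072 checks, and 57 of 976 checks brought a gene that had not passed past it. The cause of these changes was not tested. With 3 libraries a group and 13.2 M to 19.5 M counts, small changes in genes of few counts could not be detected.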

Other observations

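A few genes typical of fat cells had lower counts in the middle libraries than in the low and high ones, most evenly in replicates 2 and 3. In replicate 1 several were also at or near 0 in low and high: 5 of 11 such genes were at 0 in low replicate 1 and 6 in high replicate 1, against 7, 6 and 2 in middle replicates 1 to 3. These genes are of low count, lie outside the naming rule and were chosen after their values were seen. Cyp2e1 and Car3 passed the comparison of middle with low, also with each low or middle library left out in turn. Cyp2e1, an alcohol-oxidizing cytochrome of liver and fat, had 63, 26 and 23 counts in low replicates 1 to 3, 0 in each of the 3 middle libraries, and 74, 12 and 16 in high. Car3, a carbonic anhydrase abundant in fat, had 11, 93 and 131 counts in low, 0, 1 and 8 in middle and 13, 111 and 82 in high. The lipid droplet gene Cidec had 1, 15 and 11 counts in low, 0 in each middle library and 0, 10 and 10 in high. Pck1, an enzyme of glycerol and glucose synthesis, had 18 in each low library, 3, 0 and 1 in middle and 21, 14 and 14 in high. Adiponectin, Adipoq, had 0, 18 and 19 counts in low, 4, 4 and 3 in middle and 0, 19 and 24 in high, so that in replicate 1 it was higher in middle.

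Scd1, a desaturase also expressed in fat cells, was among the called falls, with 78, 1097 and 1047 counts in low, 43, 730 and 646 in middle and 66, 1286 and 1032 in high. For the 10 other genes of a list of 11 fat-cell genes, chosen after the values were seen, the summed counts were 99, 271 and 271 in low, 12, 25 and 38 in middle and 112, 251 and 207 in high. The sum was lower in middle within each number although middle replicate 2 was the deepest library. In replicate 1 it rested on few of these genes. Of the 99 counts in low replicate 1, Cyp2e1 gave 63, Pck1 18 and Car3 11, while Adipoq, Cfd, Plin1, Lep and Thrsp were at 0. The part of fat-cell RNA in the fall of Scd1 was not tested.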
